A study of Sus scrofa with 22 samples.

Results

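The insulin-like growth factor (IGF) system genes examined here are 10 named genes: the hormones IGF1 and IGF2, the receptors IGF1R, INSR and GHR, and the binding proteins IGFBP2, IGFBP3, IGFBP4, IGFBP5 and IGFBP6. They were found by gene symbol in a table of 31907 pig Ensembl identifiers. An identifier was paired with a symbol for 8 of the 10, and IGF2 and IGFBP3 are not analysed here. Of these 8 genes, 7 had enough reads to be tested, and IGF1 did not. RNA was counted in the cerebellum of 22 piglets (Sus scrofa), the brain region that coordinates movement and balance. In 11 animals (7 female, 4 male) the bile duct had been tied at 8 days of age (bile duct ligation, BDL), which stops bile from leaving the liver. The other 11 animals (5 female, 6 male) had a sham operation (SHAM), and both groups were followed for 3 weeks. The sources used here state neither the strain nor whether animals shared a litter.

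IGF1 and IGF2 are small secreted hormones that promote growth and survival of cells. Both signal through the tyrosine kinase receptor encoded by IGF1R, and IGF2 also through one form of the insulin receptor, encoded by INSR. GHR encodes the growth hormone receptor, through which the pituitary drives much of the body's IGF1 production, mostly in liver. The IGFBP genes encode secreted proteins that bind the IGFs, carry them and control how much reaches the receptors. In rodents, IGF1 supports the growth and survival of cerebellar granule neurons and Purkinje cells after birth, and IGFBP2 and IGF2 are known products of the coverings of the brain and of the choroid plexus.

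Each library held between 14811464 and 20046909 read pairs assigned to genes. The libraries were paired-end, and a counted pair is called a read here. Levels are given as CPM, the read count scaled to the library's total, after TMM scaling for differences in library composition. They are not divided by gene length, so levels are compared between animals and not between genes. Markers of cerebellar neurons were present in every library: each of 5 granule neuron markers and each of 5 Purkinje cell markers had reads in 22 of 22 animals. The 5 granule neuron markers summed to 2501 to 2971 CPM in BDL and 2379 to 3308 CPM in SHAM animals. The BDL piglets weighed 2044 ± 313 and the SHAM piglets 2035 ± 273 (SD, n = 11 each), in a unit that the labels do not state. The age at weighing is not given either. SHAM replicate 1 stood apart from the other animals. It had the fewest assigned reads, the highest IGF1R and INSR and the lowest GHR, IGFBP2 and IGFBP6 of all 22.

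BDL and SHAM cerebella could not be separated by any of the 7 tested IGF system genes. In edgeR's quasi-likelihood test with sex in the model, 0 of 7 genes passed an adjusted p of 0.05, and 0 of 7 had an unadjusted p under 0.05. Among all 14994 genes tested, 0 passed (0%), and 744 (4.96%) had an unadjusted p under 0.05. By limma-voom 0 of 7 and 0 of all genes passed, and 743 were under 0.05 without adjustment. By DESeq2 0 of 7 and 1 of all genes passed, and 769 were under 0.05 without adjustment. The estimate was on the lower side in BDL for 6 of the 7 genes and on the higher side for 1. Their median log2 fold change was -0.10, against 0.0006 for all genes, of which 50.3% were on the higher side. For each of the 7 genes the BDL and SHAM ranges overlapped. The share of all genes whose ranges overlap was not counted, so this is a description only.

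**Figure D1:**
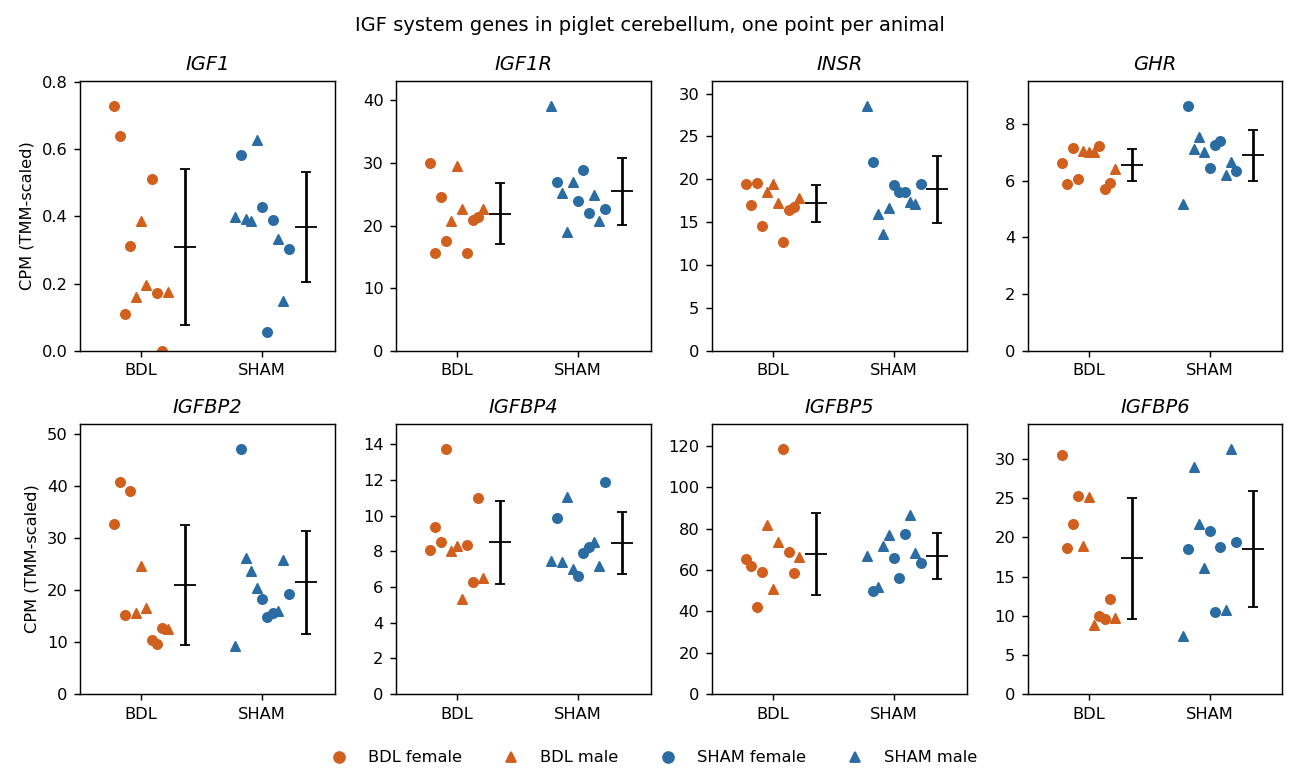
TMM-scaled CPM of 8 IGF system genes in 11 BDL and 11 SHAM piglets. Each point is an animal (circles female, triangles male), and the bar beside each group is its mean ± SD. The groups overlap in every panel, and IGFBP2 and IGFBP6 spread far more widely among animals than GHR.

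The hormone gene IGF1 (ENSSSCG00000000857, chromosome 5, 81762027 to 81909253) was close to the limit of detection. It had 59 reads over the 11 BDL libraries (lowest 0, median 3, highest 13) and 70 reads over the 11 SHAM libraries (lowest 1, median 6, highest 11). The libraries with 10 or more reads were 2 of 11 in BDL and 2 of 11 in SHAM, fewer than the filter on low counts required. In CPM this was 0.309 ± 0.233 in BDL and 0.368 ± 0.164 in SHAM. The library with 0 reads, from BDL replicate 10, allows a level of up to 0.189 CPM by a limit of 3 reads, which covers counting error only. Without the filter the log2 fold change was -0.29 ± 0.41 SE (edgeR p = 0.489, adjusted p = 0.910), so a difference between the groups was not detectable at this depth.

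IGF1R (ENSSSCG00000030560, chromosome 1, 137383623 to 137691038 on Sscrofa11.1) encodes the receptor that carries most signals of both IGFs. Its lowest, median and highest levels were 15.6, 21.4 and 30.1 CPM in BDL animals and 19.05, 24.9 and 39.2 CPM in SHAM animals. Only 2 of 11 BDL animals were above the SHAM mean, and 3 lay outside the SHAM range. The highest SHAM value belonged to SHAM replicate 1, well above the other animals. IGF1R averaged 21.9 ± 4.8 CPM in BDL and 25.5 ± 5.4 CPM in SHAM (log2 fold change -0.20 ± 0.12 SE, 95% confidence interval -0.44 to 0.05, edgeR p = 0.118, adjusted p = 0.881). Without SHAM replicate 1 the log2 fold change was -0.13 ± 0.11 (p = 0.235, adjusted p = 0.953), and without BDL replicate 1 it was -0.25 ± 0.11 (p = 0.0402, adjusted p = 0.770).

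INSR (ENSSSCG00000013566, chromosome 2, 71797209 to 71939923) encodes the insulin receptor. INSR ran from 12.6 to 19.6 CPM with a median of 17.3 in BDL animals, and from 13.6 to 28.6 CPM with a median of 18.5 in SHAM animals. SHAM replicate 1 was again the highest of all 22 animals and BDL replicate 8 the lowest, as they were for IGF1R. The log2 fold change was -0.12 ± 0.10 SE (8 of 11 BDL animals below the SHAM mean, edgeR p = 0.225, adjusted p = 0.881). Without SHAM replicate 1 it was -0.06 ± 0.08 (p = 0.496, adjusted p = 0.973).

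GHR (ENSSSCG00000016866, chromosome 16, 27126300 to 27422618) was the steadiest of the 7 tested genes. It ran from 5.72 to 7.23 CPM with a median of 6.63 in BDL animals, and from 5.19 to 8.65 CPM with a median of 7.01 in SHAM animals. All 11 BDL values lay inside the SHAM range. The log2 fold change was -0.07 ± 0.08 SE (edgeR p = 0.390, adjusted p = 0.914), with a 95% interval of 0.842 to 1.07 as a fold, the narrowest of the 7. Without SHAM replicate 2, the animal with the highest GHR, the log2 fold change was -0.03 (p = 0.742). The coefficient of variation of GHR over the 22 animals was 11.2%. A smaller one was found in 5.22% of the 2892 tested genes whose mean level was within 2-fold of its own.

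IGFBP2 (ENSSSCG00000035392, chromosome 15, 118822092 to 118850985), a binding protein abundant in the developing brain, varied most among animals of the 7 tested genes. Its levels were 9.65, 15.6 and 40.9 CPM (lowest, median, highest) in BDL animals and 9.25, 19.3 and 47.2 CPM in SHAM animals. BDL replicates 1, 2 and 4 and SHAM replicate 2, all female, stood above the rest at 32.7, 40.9, 39.1 and 47.2 CPM. All BDL values lay within the SHAM range. The coefficient of variation was 49.6%, larger than for 99.4% of the 4503 genes of similar level. The log2 fold change was -0.10 ± 0.29 SE (edgeR p = 0.730, adjusted p = 0.967), and it ran from -0.21 without BDL replicate 2 to 0.11 without SHAM replicate 2. With so wide a spread its 95% interval reached from 0.611-fold to 1.42-fold.

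IGFBP6 (ENSSSCG00000000261, chromosome 5, 18352884 to 18357225), which prefers IGF2 over IGF1, was the next most variable, with a coefficient of variation of 41.2%. It ran from 8.83 to 30.5 CPM with a median of 18.7 in BDL animals, and from 7.38 to 31.3 CPM with a median of 18.7 in SHAM animals. The 5 lowest BDL animals were at 8.83 to 12.2 CPM and the other 6 at 18.7 CPM or more, with no BDL animal between. The low ones were BDL replicates 7 to 11, with labelled animal numbers from 411 to 421. The others were BDL replicates 1 to 6, numbered from 400 to 407. Among BDL animals this gap and a split by animal number are thus the same and cannot be told apart. IGFBP6 was at 17.3 ± 7.7 CPM in BDL and 18.6 ± 7.4 CPM in SHAM (log2 fold change -0.11 ± 0.27 SE, edgeR p = 0.703, adjusted p = 0.960). With 1 animal left out it ran from -0.21 without BDL replicate 6 to -0.01 without BDL replicate 7.

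IGFBP4 (ENSSSCG00000017472, chromosome 12, 21966524 to 21980043), a binding protein that inhibits IGF action until it is cleaved, had levels of 5.32, 8.29 and 13.8 CPM (lowest, median, highest) in BDL animals and 6.62, 7.92 and 11.9 CPM in SHAM animals. Both the highest and the lowest animal were BDL, replicates 4 and 7. The log2 fold change was -0.05 ± 0.13 SE (edgeR p = 0.695, adjusted p = 0.959), and it ran from -0.12 without BDL replicate 4 to 0.006 without SHAM replicate 11.

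IGFBP5 (ENSSSCG00000025924, chromosome 15, 118861816 to 118877787) encodes a binding protein that also attaches to the extracellular matrix, and its gene lies close to IGFBP2 on the chromosome. It ran from 42.1 to 119 CPM with a median of 65.2 in BDL animals, and from 49.9 to 86.8 CPM with a median of 66.7 in SHAM animals. The highest value was that of BDL replicate 8, the animal with the lowest IGF1R and INSR. IGFBP5 was the 1 tested gene on the higher side in BDL, by 0.04 ± 0.14 on the log2 scale (edgeR p = 0.767, adjusted p = 0.973). Without BDL replicate 8 the estimate was -0.07 ± 0.10 (p = 0.514, adjusted p = 0.973).

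The intervals set how large a treatment difference these data leave room for. The 95% interval of the fold change lay inside 1.5-fold in both directions for 5 of 7 genes and inside 2-fold for 7 of 7. The intervals that passed 1.5-fold were those of IGFBP2 and IGFBP6. With the labelled animal number as a covariate the estimates of these 2 genes were -0.29 ± 0.24 and -0.28 ± 0.26 (adjusted p of 0.802 and 0.818 by edgeR). BDL replicates 8 to 11, numbered from 417 to 421, had IGFBP2 of 9.65 to 12.6 CPM. SHAM replicates 7, 8 and 9, numbered from 413 to 415, were at 14.8, 15.6 and 16.0 CPM. SHAM replicates 10 and 11, numbered 416 and 420, were at 25.8 and 19.3 CPM.

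**Figure D2:**
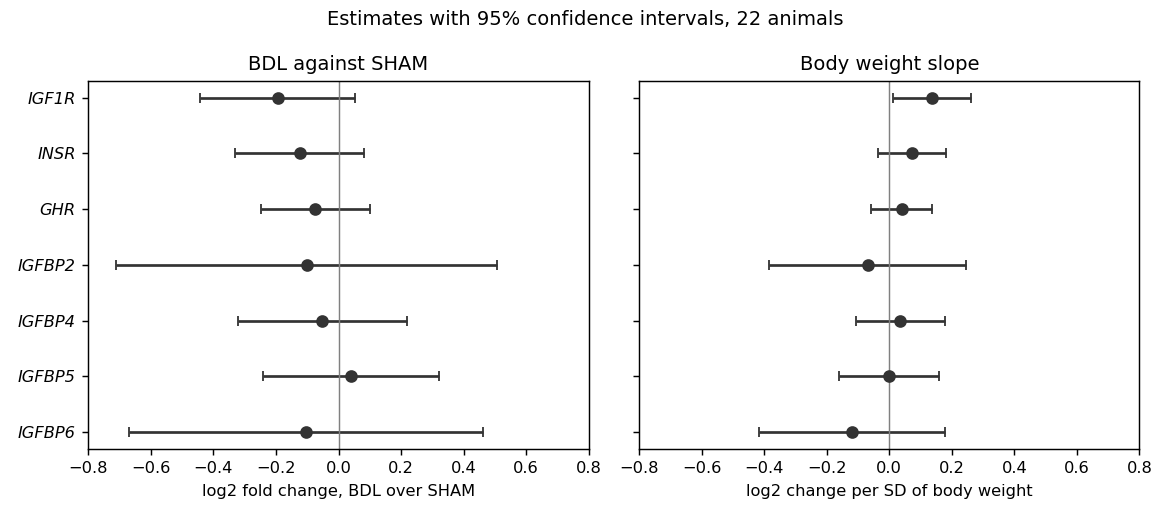
Estimates for 7 IGF system genes with 95% confidence intervals from edgeR fits of 22 animals. The left panel shows the log2 fold change of BDL over SHAM and the right panel the log2 change per standard deviation of body weight. Every treatment interval includes 0, and in the weight panel the interval of IGF1R alone does not.

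The sexes were also set against each other within these genes. Between females and males 0 of 7 IGF system genes passed edgeR's test, and 0 of 7 had an unadjusted p under 0.05. Over all genes 9 passed (0.06%) and 892 (5.95%) had an unadjusted p under 0.05. By limma-voom 0 of 7 and 10 of all genes passed, and by DESeq2 0 of 7 and 23. IGFBP4 had the smallest p of the 7, at 9.17 ± 2.17 CPM in 12 females and 7.68 ± 1.51 CPM in 10 males (log2 fold change 0.27 ± 0.13, p = 0.0552, adjusted p = 0.829). By DESeq2 its unadjusted p was 0.0494 and its adjusted p 0.781. The effect of BDL did not differ detectably between the sexes: the interaction called 0 of 7 genes and 0 of all genes (0%), with 0 of 7 and 689 (4.60%) at an unadjusted p under 0.05. By limma-voom 0 of 7 and 0 of all genes passed in that comparison (752 under 0.05 without adjustment), and by DESeq2 0 and 0 (736). Within females alone 0 of 7 genes passed or had an unadjusted p under 0.05 (all genes 0% and 5.83%), and within males alone 0 of 7 (all genes 0% and 4.08%). INSR was at -0.23 ± 0.13 in females and 0.006 ± 0.15 in males (difference -0.24 ± 0.20, p = 0.247, adjusted p = 0.917). Without SHAM replicate 1, a male, that difference was -0.40 ± 0.15 (p = 0.0128, adjusted p = 0.628). GHR was at -0.18 ± 0.11 in females and 0.05 ± 0.12 in males (difference -0.23 ± 0.17, p = 0.183, adjusted p = 0.917).

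Body weight asks a second question of these genes, since the IGF system is the main hormonal control of growth after birth. The labels do not say whether the animals were weighed at surgery or later. The slope was estimated per standard deviation of weight (286 in the labelled unit), beside sex and treatment. No IGF system gene passed, 0 of 7 by edgeR, limma-voom or DESeq2. Over all genes edgeR called 0 (0%), with 1108 (7.39%) at an unadjusted p under 0.05. Over all genes limma-voom called 0 (1148 under 0.05 without adjustment) and DESeq2 called 8 (1175). The 7 slopes ran from -0.12 to 0.14 with a median of 0.04, against 0.0004 over all genes.

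IGF1R was the 1 gene of the 7 with an unadjusted p under 0.05, by edgeR and by DESeq2 but not by limma-voom. It was higher by 0.14 ± 0.06 log2 units per standard deviation of weight (95% interval 0.01 to 0.26, edgeR p = 0.0340, adjusted p = 0.650). The slope was 0.14 ± 0.08 among BDL animals and 0.13 ± 0.09 among SHAM animals, and the difference between these slopes was 0.02 ± 0.12 (p = 0.870, adjusted p = 0.999). Both slopes came from 1 model of all 22 animals, not from fits of each treatment alone. For the BDL slope 0 of 7 genes passed or had an unadjusted p under 0.05 (all genes 0% and 5.22%). For the SHAM slope this was also 0 of 7 (all genes 0% and 5.34%). With 1 animal left out, the IGF1R slope over all animals ran from 0.10 to 0.17, and its edgeR p from 0.00948 to 0.0978. The lowest slope, 0.10 ± 0.06 (p = 0.0978, adjusted p = 0.664), was without SHAM replicate 1, a piglet of weight 2220. Without a term for sex or treatment the slope was 0.09 (p = 0.152, adjusted p = 0.969). Without the 2 animals farthest from the median weight (2540 and 2560) it was 0.16 ± 0.07 (p = 0.0358, adjusted p = 0.609).

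The other slopes were smaller against their errors. INSR had 0.07 ± 0.05 (p = 0.185, adjusted p = 0.780) and GHR 0.04 ± 0.05 (p = 0.410, adjusted p = 0.875), both from edgeR. Without SHAM replicate 1 the slope of INSR was 0.03 ± 0.05 (p = 0.519) and that of GHR 0.06 ± 0.04 (p = 0.150), and without SHAM replicate 2 that of GHR was 0.006 (p = 0.903). IGFBP6 had -0.12 ± 0.14, IGFBP2 -0.07 ± 0.15, IGFBP4 0.04 ± 0.07 and IGFBP5 -0.002 ± 0.08, with adjusted p values of 0.875, 0.947, 0.939 and 0.997. IGFBP4 had a slope of -0.05 ± 0.08 among BDL and 0.17 ± 0.10 among SHAM animals, and the difference was -0.22 ± 0.13 (p = 0.0984, adjusted p = 0.999). BDL replicate 4, the lightest animal and the one with the highest IGFBP4, weighed heavily on both values. Without it the difference was -0.10 (p = 0.389) and the slope over all animals 0.15 ± 0.06 (p = 0.0256, adjusted p = 0.683). Without BDL replicate 10 the difference was -0.31 ± 0.13 (p = 0.0276, adjusted p = 0.927). The test of a difference in slope called 0 of 7 genes and 0 of all genes (0%), with 0 of 7 and 467 (3.11%) at an unadjusted p under 0.05. By limma-voom 0 of 7 and 0 of all genes passed there (485 under 0.05 without adjustment), and by DESeq2 0 and 0 (509). IGF1 without the count filter had a slope of 0.09 ± 0.22 (p = 0.670).

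**Figure D3:**
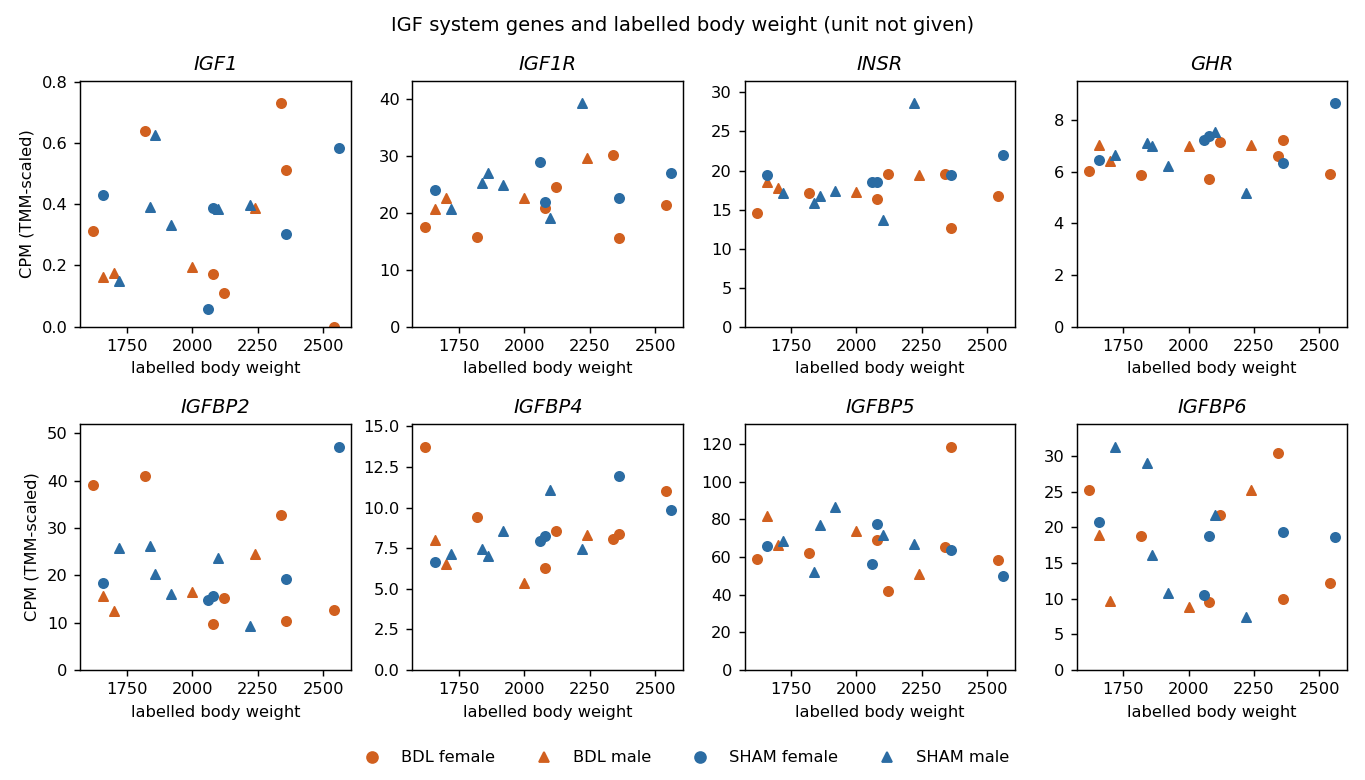
TMM-scaled CPM of 8 IGF system genes against labelled body weight in 22 piglets (BDL and SHAM by colour, circles female, triangles male). The weights run from 1620 to 2560 in the labelled unit. The slope of IGF1R is 0.14 ± 0.06 log2 units per standard deviation of weight (adjusted p = 0.650 by edgeR), and SHAM replicate 1, at 39.2 CPM, is its highest point.

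The genes did not vary among animals as 1 block. Over the 21 pairs among the 7 genes and the 84 pairs of a gene with a cell type marker list, 105 relations were computed, each with permutation tests of 100000 resamples and Benjamini-Hochberg adjustment over the 105. In 5 of the 105 the adjusted p of Spearman's rho was under 0.05. Within the gene set these were IGF1R with INSR and IGFBP2 with IGFBP6. The third receptor gene, GHR, had a rho of 0.054 with IGF1R and 0.046 with INSR. IGF1R and INSR rose and fell together (Pearson's r = 0.787, permutation p = 3e-05, adjusted 0.00105; Spearman's rho = 0.652, permutation p = 0.00132, adjusted 0.0277; n = 22 animals). Among BDL animals rho was 0.809 and among SHAM animals 0.382, and r without the 2 animals farthest from the median of INSR was 0.578. IGFBP2 and IGFBP6 were also high in the same animals (r = 0.733, permutation p = 0.00015, adjusted 0.00315; rho = 0.696, permutation p = 0.00039, adjusted 0.0137). Among BDL animals rho was 0.627 and among SHAM animals 0.682, and r without the 2 farthest animals was 0.709. IGFBP6 had a gap between 12.2 and 16.1 CPM, and rho was 0.405 in the 8 animals below it and 0.169 in the 14 above. IGFBP5 had a negative rho with each of the other 6 tested genes, from -0.362 with IGF1R to -0.039 with GHR, none of which passed.

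IGFBP2 followed the markers of the meninges, the connective tissue covering the brain. The list held 9 genes, including the collagen genes COL1A1, COL1A2 and COL3A1 and the fibroblast proteoglycan gene DCN, and all 9 were measured with none at 0 in any library. Their summed level was 260 to 636 CPM in BDL animals (median 410) and 325 to 618 CPM in SHAM animals (median 425). IGFBP2 rose with that sum (r = 0.818, permutation p = 1e-05, adjusted 0.000525; rho = 0.833, permutation p = 1e-05, adjusted 0.000525, n = 22), and 1e-05 is the smallest p these resamples can give. Among BDL animals rho was 0.900 and among SHAM animals 0.727, and r without the 2 farthest animals was 0.773. The sum had a gap between 344 and 410 CPM, and rho was 0.617 in the 9 animals below it and 0.758 in the 13 above. Animals below the gap carried the labelled numbers 401, 411, 413, 415 to 419 and 421. Those above it carried 400, 402 to 410, 412, 414 and 420. The permutation tests took no account of animal number, and whether the marker relations follow it was not tested. In bulk tissue, more cells of a type and more RNA per cell cannot be told apart.

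IGFBP6 followed the same markers less evenly (r = 0.757, permutation p = 6e-05, adjusted 0.00158; rho = 0.694, permutation p = 0.00056, adjusted 0.0147, n = 22). Among BDL animals rho was 0.773 and among SHAM animals 0.500. The relation was not particular to the meningeal list among BDL animals. There rho was 0.864 with vessel wall markers (pericytes and smooth muscle) and 0.800 with markers of the vessel lining (endothelium). Among SHAM animals these were 0.100 and -0.200. Over all 22 animals neither passed by Spearman's rho (0.521 and 0.356, adjusted permutation p of 0.158 and 0.417). With the meningeal list rho was 0.633 in the 9 animals below the gap in the marker sum and 0.203 in the 13 above. The relation thus rests largely on the step and on the animals below it. Animals on either side of the step also differed in labelled number, as given above. All 5 BDL animals with IGFBP6 of 12.2 CPM or less had meningeal sums of 331 CPM or less, and they were also the BDL animals with the highest labelled numbers. SHAM replicate 10 stood off the relation, with 31.3 CPM of IGFBP6 at a meningeal sum of 343 CPM and a choroid plexus marker sum of 896 CPM. SHAM replicate 9, with sums of 344 and 505 CPM, had 10.8 CPM of IGFBP6. The relation of IGFBP6 to the choroid plexus list did not pass (rho = 0.439, adjusted permutation p = 0.268).

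IGFBP4 instead followed the endothelium, the cell layer that lines blood vessels. Of 6 endothelial markers 5 were measured (CLDN5, PECAM1, FLT1, KDR and CDH5), none at 0 in any library, and they summed to 109 to 203 CPM in BDL and 131 to 185 CPM in SHAM animals. IGFBP4 rose with that sum (r = 0.839, permutation p = 1e-05, adjusted 0.000525; rho = 0.836, permutation p = 1e-05, adjusted 0.000525, n = 22). Among BDL animals rho was 0.773 and among SHAM animals 0.882, and r without the 2 farthest animals was 0.720. The animals with the highest and lowest IGFBP4, BDL replicates 4 and 7, were also those with the highest and lowest endothelial sums, 203 and 109 CPM. With Purkinje cell markers IGFBP4 had a negative relation that passed by Pearson's r (-0.605, permutation p = 0.00287, adjusted 0.0431) and not by Spearman's rho (-0.515, permutation p = 0.01502, adjusted 0.158).

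**Figure D4:**
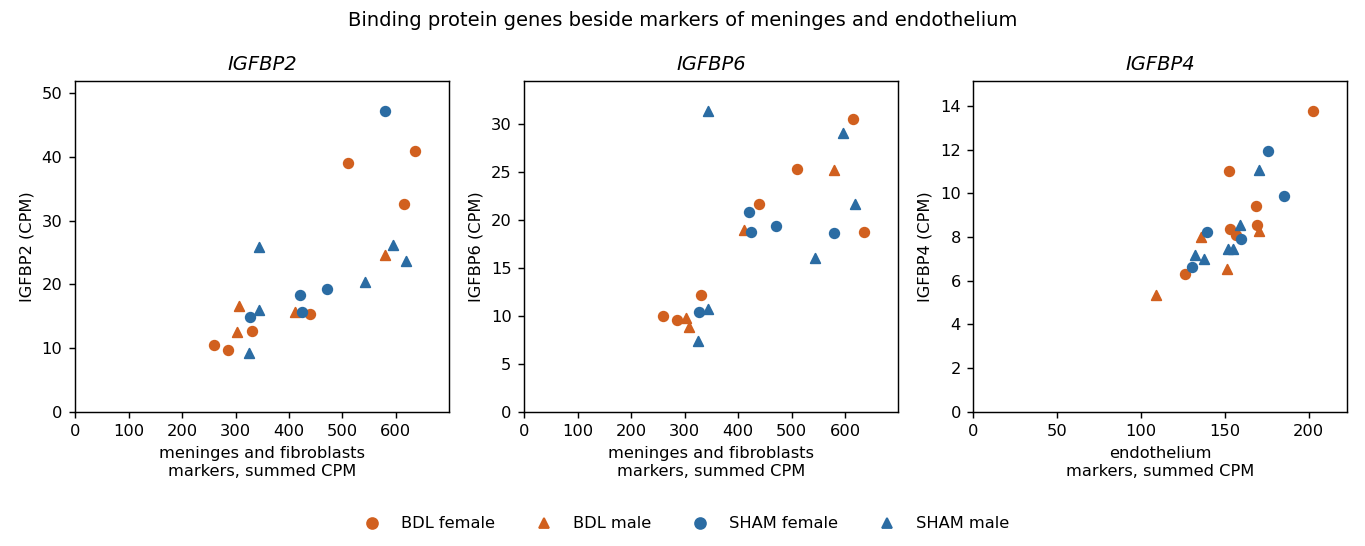
IGFBP2, IGFBP6 and IGFBP4 (CPM) against the summed CPM of marker genes of meninges and fibroblasts or of endothelium, 1 point per animal (BDL and SHAM by colour, circles female, triangles male). IGFBP2 and IGFBP4 rise across the whole range. IGFBP6 steps up between marker sums of 344 and 410 CPM, with a rho of 0.633 below that step and 0.203 above it.

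The treatment estimates of the binding proteins were also fitted beside these marker sums. Each sum was that of the list with which the gene had its highest rho in these same animals. A smaller standard error follows from that choice and is no separate result. Whether cell content changes the treatment estimates was not tested. With the log2 meningeal sum as a covariate, a fit added after the data were seen, the log2 fold change of BDL over SHAM was -0.0006 ± 0.16 for IGFBP2 and -0.05 ± 0.19 for IGFBP6. Their standard errors without that covariate were 0.29 and 0.27. With the log2 endothelial sum as a covariate, IGFBP4 was at -0.02 ± 0.09, against an error of 0.13 without it. None of the 3 passed edgeR's test in these fits (adjusted p of 0.999, 0.970 and 0.974).

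The receptor genes had no relation to a marker list that passed by Spearman's rho. With oligodendrocyte precursor markers rho was 0.574 for IGF1R (permutation p = 0.0059, adjusted 0.0894) and 0.563 for INSR (permutation p = 0.00746, adjusted 0.0979). GHR had its highest rho with cerebellar interneuron markers (0.448, adjusted permutation p of 0.257). With the precursor markers, the rho of IGF1R was 0.764 among BDL and 0.036 among SHAM animals. That of INSR was 0.782 among BDL and 0.064 among SHAM animals. The precursor sum was 99.2 to 177 CPM in BDL and 134 to 180 CPM in SHAM animals, a wider range in BDL. Pearson's r of IGF1R with that list passed (0.631, permutation p = 0.00182, adjusted 0.0319) and was 0.441 without the 2 farthest animals.

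**Figure D5:**
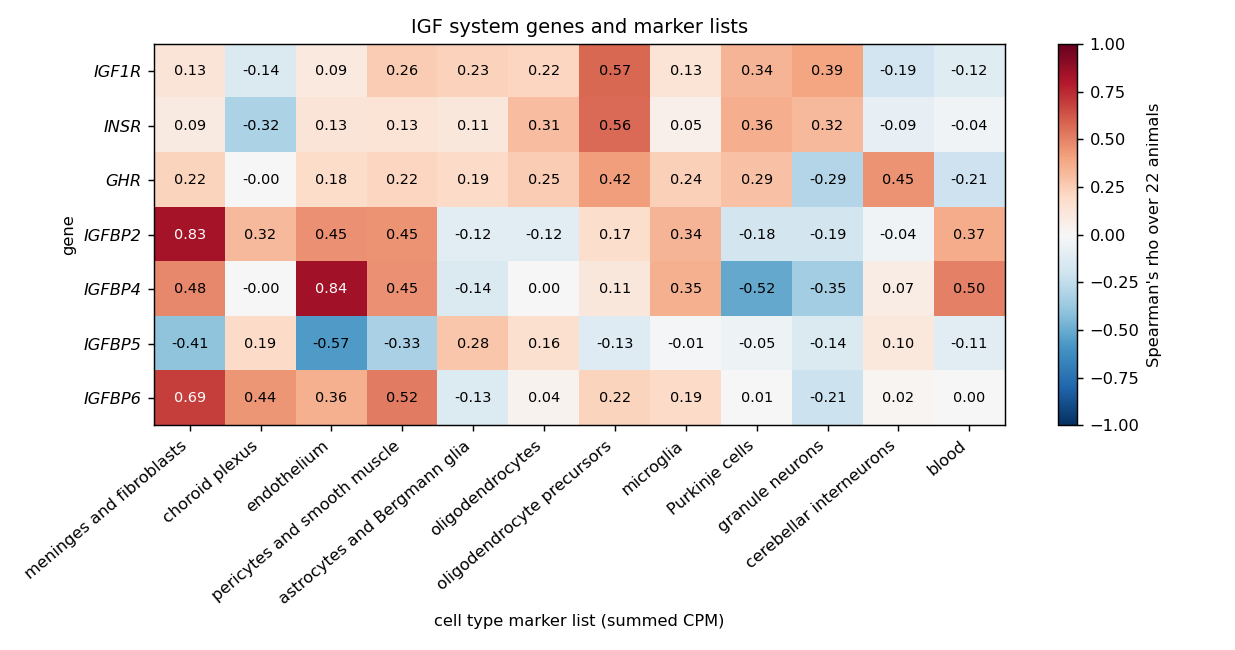
Spearman's rho over 22 animals between 7 IGF system genes (rows) and the summed CPM of 12 cell type marker lists (columns). The strongest values are IGFBP4 with endothelium (0.84) and IGFBP2 with meninges and fibroblasts (0.83).

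For each tested gene the 2 genes most like it in level over the 22 animals were found by Spearman's rho of log2 CPM, given as a description. Only the 12317 of 14994 tested genes that have a symbol were searched. INSR was closest to ARID1A, a chromatin remodelling subunit (0.940), and CELSR2, a cadherin receptor (0.910). IGF1R was closest to PEAK1, a pseudokinase (0.902), and LMBRD2 (0.892). IGFBP2 was closest to SLC5A5, the sodium iodide symporter gene (0.928), and ADAMTSL3, a matrix glycoprotein gene (0.887). IGFBP6 was closest to NET1 (0.869), and TNMD, the tenomodulin gene of tendon and connective tissue (0.867). IGFBP4 was closest to PML, a nuclear body protein gene (0.857), and ALPL, the tissue-nonspecific alkaline phosphatase (0.850). GHR and IGFBP5 had no match as close: GHR reached 0.762 with RNF115 and 0.752 with ATP6, a mitochondrially encoded ATP synthase subunit, and IGFBP5 reached 0.691 with DDO, D-aspartate oxidase, and 0.649 with RSPH1, a cilium gene.

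Signalling genes around the IGF system gave no call either. Of 60 further pathway genes (carriers, proteases, adaptors, PI3 kinase, AKT, mTOR and FOXO genes, and IGF2 mRNA-binding proteins) 51 were tested. In BDL against SHAM 25 were on the higher and 26 on the lower side, with a median log2 fold change of -0.007, and edgeR called 0. Without adjustment 5 of 51 were under 0.05 (9.80%, against 4.96% of all genes), 4 lower and 1 higher. PIK3CB, a catalytic subunit of PI3 kinase, was at 28.9 ± 2.5 CPM in BDL and 32.2 ± 2.2 CPM in SHAM (log2 fold change -0.17 ± 0.05, p = 0.00310, adjusted p = 0.881). IDE, the protease that degrades insulin, was at 39.1 ± 4.5 CPM in BDL and 43.8 ± 3.0 CPM in SHAM (-0.16 ± 0.06, p = 0.0173). FOXO4, a transcription factor that AKT restrains, was at 43.1 ± 4.9 CPM in BDL and 38.8 ± 4.2 CPM in SHAM (0.14 ± 0.07, p = 0.0446). The other two, GSK3B (-0.14 ± 0.06) and EIF4EBP1 (-0.22 ± 0.10), were picked out after their values were seen. On the higher side TSC2, a brake on mTOR, came next to FOXO4 at 0.08 ± 0.05 (p = 0.140).

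Against body weight 33 of the 51 pathway genes had a positive and 18 a negative slope, with 0 passing and 2 at an unadjusted p under 0.05 (3.92%, against 7.39% of all genes). These were GRB2, an adaptor of receptor tyrosine kinases (-0.04 ± 0.02 per standard deviation, p = 0.0305, adjusted p = 0.636), and PIK3CD, a PI3 kinase subunit of white blood cells (0.11 ± 0.05, p = 0.0481, adjusted p = 0.675). INPP5D, a lipid phosphatase of blood cells and microglia, followed at 0.14 ± 0.07, and PIK3R2, a regulatory PI3 kinase subunit, at -0.05 ± 0.03, all by edgeR. IGF2R, the receptor that clears IGF2, was at 141 ± 17 CPM in BDL and 146 ± 27 CPM in SHAM (log2 fold change -0.06 ± 0.09). PAPPA2, a protease that cleaves IGFBP5, was at 45.6 ± 8.8 CPM in BDL and 44.5 ± 7.1 CPM in SHAM (0.04 ± 0.11). IGF2R and PAPPA2 were chosen after their values were seen.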

How the data were processed

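The authors deposited a table of raw counts for each animal, in whole reads by Ensembl gene and not normalized. The submitters' processing notes name Trim Galore, HISAT2, HTSeq and DESeq2 and the pig build Sscrofa11.1. Their versions and the strand setting are not stated, so reads of overlapping antisense genes may be included. The 5 lines of each table that belong to no gene (29.9% to 34.6% of counted reads) were left out. Symbols matched 15029 of 31907 identifiers, and positions came by symbol from a RefSeq table of Sscrofa11.1. Over 231 pairs of libraries the chi-square per degree of freedom was 7.09 or more, so all pairs differed by more than sampling noise.

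Genes were kept by filterByExpr (minimum count 10, minimum total 15; 14994 genes), scaled by TMM and tested with edgeR 4.0.16 in R 4.3.3 (robust quasi-likelihood fits), with Benjamini-Hochberg adjustment over all tested genes. Alternatives used limma 3.58.1 and DESeq2 1.42.0, other scalings, filters and covariates, and leaving out each animal. The fits were tested on simulated data. Log2 CPM for likeness used a prior count of 2, and intervals are at 95% confidence. The genes named are the 10 members and the 2 most alike genes with a symbol per tested member. Also named are 2 pathway genes per direction, by smallest p, for treatment and for weight, and others as stated. Members and lists were chosen with earlier results of these data known.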

Additional observations from a re-analysis of the deposited data

Results flagged for a closer look

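In each of the 32 sets made by 8 genes and 4 groups of sex and treatment, the gap between the most extreme animal and its neighbour was compared with the range of the set. In 7 sets an animal stood apart by Dixon's 95% value, which chance gives in about 1 of 20 sets, or 1.6 of 32. SHAM replicate 2 was the highest SHAM female for IGFBP2 (47.2 CPM, next 19.3) and for INSR (21.97 CPM, next 19.4). SHAM replicate 1 was the highest SHAM male for INSR (28.6 CPM, next 17.4). BDL replicate 8 was the highest BDL female for IGFBP5 (119 CPM, next 68.8). SHAM replicate 7 was the lowest SHAM female for IGFBP6 (10.4 CPM, next 18.6). Among BDL males, BDL replicate 11 was the lowest for GHR (6.40 CPM, next 7.01) and BDL replicate 6 the highest for IGF1 (0.387 CPM, next 0.195), a level that rests on 7 reads.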

How the results depend on the processing

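Under 40 alternative settings none of 1085 values for the 7 tested genes passed an adjusted p of 0.05 (smallest 0.409), and 57 had the opposite sign, 39 of them with 1 animal left out. No paired analysis was possible because the replicate numbers follow deposition and tie no animals together. For BDL against SHAM the sign turned for GHR (0.052), INSR (0.0058) and IGFBP5 (-0.049) in the estimate for males. It turned for IGFBP4 (0.068) and IGFBP6 (0.057) in the estimate for females. It also turned for IGFBP4 with no sex term (0.0054), and for IGFBP5 with meningeal markers as a covariate (-0.020). For the weight slope the sign turned for IGFBP2 in SHAM animals (0.14) and for IGFBP4 (-0.048) and IGFBP5 (0.051) in BDL animals. It turned for IGFBP4 (-0.0015) and IGFBP5 (0.061) without the 2 animals farthest from the median weight. For IGFBP5 it also turned with log2 weight (0.00032) or endothelial markers as a covariate (0.016). Between the sexes it turned for GHR with no treatment term (-0.00011) and for INSR with animal number as a covariate (0.0013) or limma-voom (0.010). The treatment by sex interaction of IGFBP2 turned with animal number as a covariate (-0.10). With 1 animal left out, the BDL estimates ran from -0.21 to 0.11 for IGFBP2, -0.12 to 0.0063 for IGFBP4 and -0.065 to 0.095 for IGFBP5, and, with no turn of sign, from -0.21 to -0.012 for IGFBP6, -0.25 to -0.13 for IGF1R, -0.16 to -0.057 for INSR and -0.11 to -0.028 for GHR. The weight slopes ran from -0.25 to 0.044 for IGFBP2, -0.011 to 0.15 for IGFBP4 and -0.069 to 0.032 for IGFBP5. The sex estimates ran from -0.032 to 0.027 for GHR, -0.072 to 0.14 for IGFBP6 and -0.052 to 0.065 for INSR. The treatment by weight interactions ran from -0.076 to 0.057 for GHR, -0.030 to 0.075 for IGF1R and -0.52 to 0.051 for IGFBP2, and the treatment by sex interaction of IGFBP5 from -0.026 to 0.27. The cause was not tested. The number of genes called over the whole table was 1 with DESeq2 for treatment, 8 with DESeq2 for weight, and 23 with DESeq2 or 31 with no count filter for sex. With 1 animal left out it ran from 0 to 0 for treatment, from 0 to 9 for weight (9 without SHAM replicate 1, 3 without BDL replicate 4) and from 7 to 26 for sex. IGF1, with 129 reads in all, is limited by depth.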
